A study of Mus musculus with 8 samples.

Results

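The nuclear-encoded subunits of the mitochondrial respiratory chain and ATP synthase were examined in 8 RNA-seq libraries of mouse V6.5 embryonic stem (ES) cells. Subunit genes were chosen by symbol (Nduf, Sdh, Uqcr, Cox and Atp5 names, pseudogene names ending in -ps dropped), which gave 85 of the 24921 genes in the count tables. By symbol, 38 belonged to complex I, 4 to complex II, 8 to complex III, 18 to complex IV and 17 to complex V. In the OCT4-FKBP line, OCT4 is fused to a degradation tag, and 2 libraries came from cells given the degrader (dTag9 in the labels, dTAG here) for 24 h and 2 from cells given DMSO for 24 h. In the parental line (WT), 2 libraries came from cells from which LIF had been withdrawn for 5 days and 2 from cells with LIF. The growth protocol of all 8 samples names 2i medium, with inhibitors of MEK and GSK3. Whether these inhibitors were kept during LIF withdrawal was not established here. A loss of them could not be told apart from the loss of LIF. The labels do not say whether the tagged line is 1 clone, and untagged cells given dTAG were not analysed here, so loss of OCT4 and other effects of the compound cannot be told apart.

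Complex I (NADH dehydrogenase) and complex II (succinate dehydrogenase) pass electrons to ubiquinone, complex III passes them to cytochrome c, and complex IV (cytochrome c oxidase) passes them to oxygen. Complexes I, III and IV pump protons, and complex V (ATP synthase) makes ATP from the gradient. Except in complex II, a few subunits are encoded in mitochondrial DNA, and nuclear genes such as these encode the others. Naive ES cells are known to respire as well as to use glycolysis, and LIF, acting through STAT3, is one of the signals that hold the naive state.

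Counted reads per library ranged from 7221451 to 11447468, and the 85 subunit genes took 1.07% to 1.58% of them. Reads were counted per RefSeq transcript, and a read in sequence shared by several transcripts was assigned to none of them. Such ambiguous reads made up 42.5% of all reads that were counted or ambiguous, and they empty genes with several transcripts. Of the 85 genes, 63 had enough reads to be tested, 55 of them with 1 transcript and 8 with several, at 52 to 270699 reads in total (median 7603). The 8 were Ndufa7, Ndufb8, Ndufb11, Ndufv3, Uqcrq, Atp5c1, Atp5d and Atp5k. Their counts hold only reads that fit 1 transcript alone, so they do not measure the whole gene. Another 22 were not tested and held 0 to 55 reads in total: Ndufa4l2, Ndufa5, Ndufb2, Ndufb4c, Ndufs1, Ndufs5, Ndufs6, Ndufs8, Ndufv2, Sdhb, Cox4i1, Cox4i2, Cox6a2, Cox6b2, Cox7a2l, Cox8b, Cox8c, Atp5g1, Atp5g3, Atp5j, Atp5mpl and Atp5pb. Of these, 15 have several transcripts, so a low count says nothing about their expression. Many subunit genes also have processed copies elsewhere in the mouse genome, and reads that aligned to several places were not counted, so levels may be understated. Levels are given in CPM, read counts scaled to a common library size with edgeR's TMM factors, which are not comparable between genes.

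The cell type markers differed between the groups. The summed level of 10 pluripotency genes, of which Nanog had 0 reads and Esrrb 1, was 2438 to 2449 CPM with dTAG and 7239 to 7317 CPM in DMSO, and 2023 to 2054 CPM without LIF and 7516 to 7585 CPM with LIF. The largest part of the gap without LIF was Tfcp2l1, at 91.4 and 100.5 CPM without LIF and 3205 and 3152 CPM with LIF, while Tdgf1 went the other way, at 1143 and 1136 CPM without LIF and 664 and 761 CPM with LIF. Pou5f1, the gene of OCT4, was read at 84.6 and 90.2 CPM with dTAG and 77.5 and 77.8 CPM in DMSO. Its levels were 205 and 170 CPM without LIF and 425 and 336 CPM with LIF. The gene has 2 transcripts, and reads shared by both were not counted. OCT4 protein was not measured here.

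Without LIF, the 6 trophoblast markers summed to 1302 to 1402 CPM, against 22.0 to 22.3 CPM with LIF. That sum was nearly all the simple epithelial keratins Krt8 (521 and 477 CPM without LIF) and Krt18 (878 and 823 CPM), while Cdx2 stood at 2.73 and 1.5 CPM, Tfap2c was lower (0.854 and 0.409 CPM without LIF, 3.27 and 3.65 CPM with LIF), Elf5 had 1 read in all and Gata3 had 0. The 7 fibroblast and smooth muscle markers summed to 870 to 912 CPM without LIF and 11.5 to 11.7 CPM with LIF, of which the smooth muscle gene Tagln made 763 and 725 CPM without LIF. The 5 primitive endoderm markers summed to 719 to 816 CPM without LIF and 73.9 to 90.7 CPM with LIF, carried by the basement membrane genes Lamb1 and Col4a2. The 4 mesoderm markers summed to 53.9 to 56.3 CPM without LIF and 1.85 to 3.65 CPM with LIF. The 5 neural markers (Pax6 at 0 reads) summed to 323 to 358 CPM without LIF and 259 to 301 CPM with LIF. Among these, Tubb3 went the other way, at 43.2 and 37.5 CPM without LIF and 55.4 and 57.8 CPM with LIF. With dTAG, trophoblast markers summed to 235 to 256 CPM, of which Cdx2 made 192 and 169 CPM, against 59.5 to 61.1 CPM in DMSO. Primitive endoderm markers summed to 409 to 457 CPM with dTAG and 65.3 to 66.7 CPM in DMSO. Lamb1 alone made 430 and 384 CPM of the dTAG sum, Gata6 stood at 20.6 and 16.9 CPM with dTAG and 0.281 and 0.792 CPM in DMSO, and Sox17 and Dab2 had 3 and 2 reads over all libraries. Fibroblast, mesoderm and neural markers with dTAG stood at 17.5 to 21.8, 4.05 to 5.10 and 318 to 322 CPM. In DMSO they stood at 24.0 to 25.4, 3.96 to 6.88 and 319 to 324 CPM. The neural sum hides opposite changes. Tubb3 had 186 and 185 CPM with dTAG and 154 and 155 CPM in DMSO. Nes had 135 and 132 CPM with dTAG and 162 and 166 CPM in DMSO, and Sox1 had 0.328 and 0.222 CPM against 3.65 and 2.38 CPM. A marker count near 0 does not show that the gene was silent, since reads shared by several transcripts of a gene were not counted. Nanog and Esrrb had 0 and 1 read over all libraries, those of ES cells with LIF included. The part of these marker differences in the results on subunit genes was not tested. In bulk RNA, fewer cells of a type and less RNA per cell cannot be told apart.

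Summed over all members, subunit transcripts without LIF stood at 11136 and 10538 CPM, against 15778 and 14831 CPM with LIF, a ratio of the means of 0.708. With dTAG the sum was 13945 and 13851 CPM, against 14348 and 14290 CPM in DMSO, a ratio of 0.971. The group ranges did not overlap in either comparison. The ratio lay farthest from 1 in complex IV, at 1249 and 1197 CPM without LIF against 2071 and 2001 CPM with LIF (ratio 0.601), and at 1743 and 1785 CPM with dTAG against 2000 and 1967 CPM in DMSO (ratio 0.889). Complex II had the ratio nearest to 1 without LIF (0.842), and with dTAG it was the one complex with a ratio above 1 (1.08). The sums are led by the ATP synthase genes Atp5b and Atp5a1, which together held 40.1% to 43.6% of member CPM in each library.

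**Figure D1:**
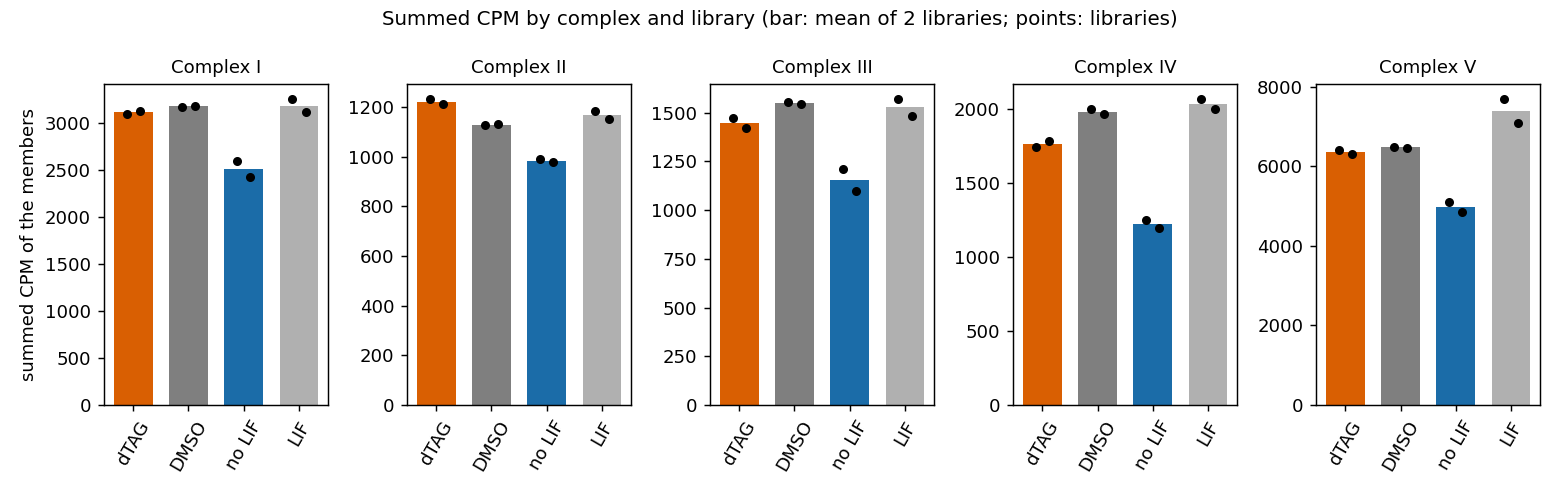
Summed CPM of the members of each complex (vertical axes, from 0) in the 4 groups; bars are means of 2 libraries and points are the libraries. In each of the 5 complexes both libraries without LIF lie below both libraries with LIF. Both dTAG libraries lie below both DMSO libraries in complexes I, III, IV and V, and above them in complex II. In complex IV they stand at 1743 and 1785 CPM, against 2000 and 1967 CPM in DMSO.

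The comparison of WT cells without and with LIF asked how transcripts change over 5 days of withdrawal. Of the 63 tested subunit genes, 42 fell without LIF (66.7%), 2 rose and 19 were not called (edgeR quasi-likelihood test, Benjamini-Hochberg adjusted p under 0.05 over all tested genes). Called in either direction were 69.8% of the 63. Over all 10311 tested genes, 34.4% were called lower and 34% higher, 68.4% in either direction. The median log2 fold change of the 63 was -0.35, a level 21.6% lower, against -0.02 over all tested genes. Medians by complex were -0.33 for complex I, -0.37 for complex II, -0.54 for complex III, -0.85 for complex IV and -0.34 for complex V. Only 3 of the 63 members, all of complex IV, were called and changed at least 2-fold, against 3462 of the 10311 tested genes. Both libraries without LIF lay below both with LIF for 44 members (69.8%) and above for 5 (7.94%). Over all tested genes these shares were 41.2% and 40.3%. Whether replicates are separate cultures is not in the labels, so each p-value reflects only library-to-library spread, possibly technical. The count of higher members was 1 without WT no LIF replicate 1 and 4 without WT LIF replicate 2.

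**Figure D2:**
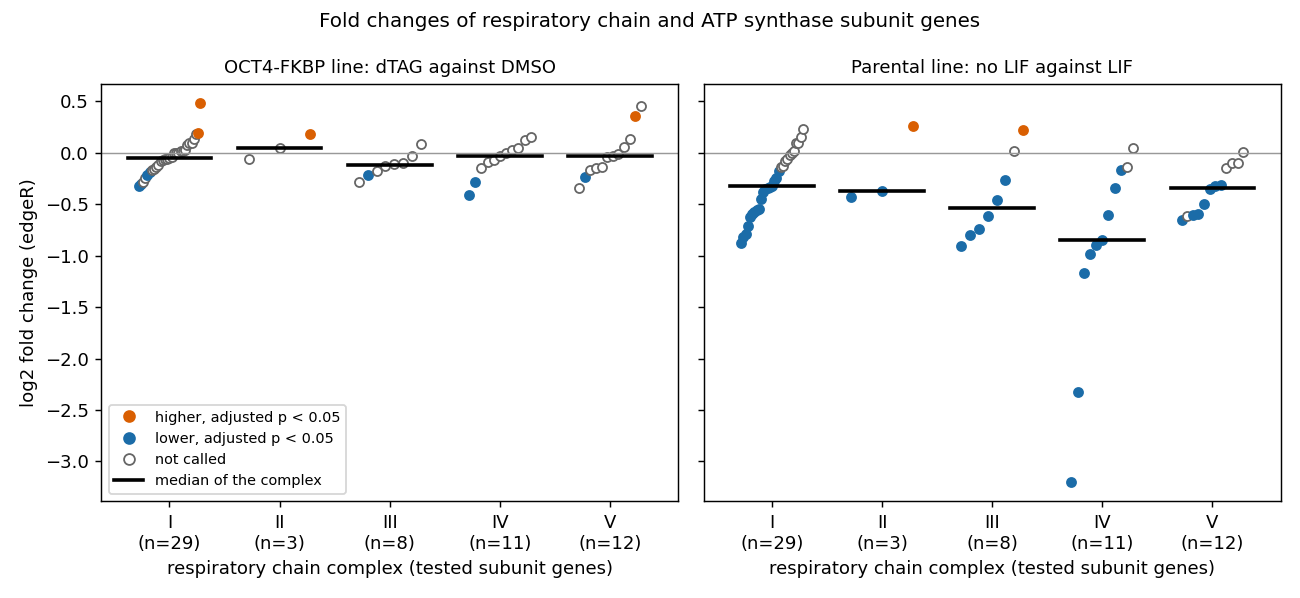
Log2 fold change (edgeR) of each tested subunit gene by complex, dTAG against DMSO on the left and no LIF against LIF on the right; filled points passed an adjusted p of 0.05 and black lines are medians. Without LIF most points lie below 0, with the lowest median, -0.85, in complex IV, whereas with dTAG all points lie between -0.41 and 0.49.

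Of the 29 tested complex I genes, 18 fell without LIF (62.1%) and 0 rose, against 34.4% and 34% of all tested genes. Ndufb5, an accessory subunit of the membrane arm, had 84.6 and 74.9 CPM without LIF and 144 and 138 CPM with LIF, a log2 fold change of -0.82 (SE 0.07, edgeR adjusted p = 1.2e-10). Ndufv1, which holds the flavin that takes electrons from NADH, had 193 and 170 CPM without LIF and 302 and 260 CPM with LIF (log2 fold change -0.63, SE 0.07, edgeR adjusted p = 6.3e-09). In both genes the groups were well apart, with the lower LIF library still above the higher library without LIF. Ndufs3 and Ndufs7, core subunits of the hydrophilic arm named after their values were seen, were not called (log2 fold changes 0.02 and -0.14).

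In complex II, Sdha, the flavoprotein that oxidises succinate, and Sdhc, a membrane anchor, fell, while Sdhd, the other membrane anchor, rose. Sdha had 564 and 578 CPM without LIF and 754 and 719 CPM with LIF, a log2 fold change of -0.37 (SE 0.05, edgeR adjusted p = 4.5e-07). For Sdhc the levels were 174 and 165 CPM without LIF and 228 and 229 CPM with LIF (log2 fold change -0.43, SE 0.06). Sdhd had 251 and 233 CPM without LIF and 203 and 202 CPM with LIF, 1.20-fold higher (log2 fold change 0.26, SE 0.06, edgeR adjusted p = 2.2e-04). Both anchors are thus non-overlapping between groups but in opposite directions. Sdhb, the iron-sulphur subunit, had too few reads to be tested.

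Of the 8 complex III genes, 6 fell (75%) and 1 rose (12.5%), against 34.4% and 34% of all tested genes. Uqcr10, a small accessory subunit, had 106 and 90.8 CPM without LIF and 196 and 176 CPM with LIF, 1.88-fold lower (log2 fold change -0.91, SE 0.07, edgeR adjusted p = 2e-11). Uqcrc1, a core protein, had 297 and 259 CPM without LIF and 516 and 452 CPM with LIF (log2 fold change -0.80, SE 0.07, edgeR adjusted p = 5.1e-11). Uqcrh, the hinge protein that helps cytochrome c bind, went the other way, with 194 and 174 CPM without LIF and 157 and 160 CPM with LIF (log2 fold change 0.22, SE 0.06, edgeR adjusted p = 0.0027). Its call was lost without WT no LIF replicate 1 (edgeR adjusted p = 0.0932). Uqcrfs1, the Rieske iron-sulphur protein, was not called (log2 fold change 0.01). Cyc1, the cytochrome c1 subunit that the symbol rule leaves out, had 210 and 183 CPM without LIF and 253 and 263 CPM with LIF (log2 fold change -0.38, SE 0.06, edgeR adjusted p = 6.3e-06).

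Complex IV held the largest changes. Of its 11 tested genes by symbol, 9 fell (81.8%) and 0 rose, against 34.4% and 34% of all tested genes. Cox5b and Cox7c were not called (log2 fold changes -0.14 and 0.05). Ndufa4, placed in complex I by its symbol but since assigned to complex IV, was not called either (log2 fold change 0.16). Cox7a1, the isoform of subunit VIIa known from heart and skeletal muscle, had 3.50 and 2.05 CPM without LIF and 27.7 and 26.2 CPM with LIF, 9.20-fold lower (log2 fold change -3.20, SE 0.17, edgeR adjusted p = 6.8e-15). Cox5a, a subunit on the matrix side, had 216 and 202 CPM without LIF and 475 and 469 CPM with LIF, 2.26-fold lower (log2 fold change -1.17, SE 0.05, edgeR adjusted p = 2.3e-16). Both genes thus lay several times the replicate spread below their LIF level. Cox7b2, an isoform of subunit VIIb known from testis, had 3 and 4 reads without LIF and 25 and 13 reads with LIF (log2 fold change -2.33, SE 0.52, edgeR adjusted p = 3.3e-04), so its size rests on few reads.

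Where isoforms of a subunit could be compared, the muscle or testis form and the common form both fell, by different amounts. Cox7a2, the VIIa isoform of most tissues, had 185 and 180 CPM without LIF and 199 and 211 CPM with LIF (log2 fold change -0.17, SE 0.06, edgeR adjusted p = 0.014). Its call was lost in 4 of 18 alternatives, with DESeq2 size factors, with the DESeq2 test, without WT no LIF replicate 2 and without WT LIF replicate 2 (adjusted p of up to 0.162, the last in edgeR). Cox7a1 made up 1.86% and 1.12% of Cox7a1 plus Cox7a2 reads without LIF, against 12.2% and 11.1% with LIF. The same share was 12.3% and 12.2% with dTAG and 11.9% and 11.5% in DMSO, so only the libraries without LIF stood apart. Because the genes differ in length, the share compares groups and is not the ratio of the transcripts. Cox7b, the common VIIb form, had 163 and 155 CPM without LIF and 193 and 211 CPM with LIF (log2 fold change -0.34, SE 0.06). The common forms of subunits VIa, VIb and VIII also fell: Cox6a1 by 0.98 on the log2 scale (SE 0.06), Cox6b1 by 0.85 (SE 0.06) and Cox8a by 0.61 (SE 0.07). Their tissue-specific partners Cox6a2, Cox6b2, Cox8b and Cox8c had 1 to 46 reads over all libraries, and Cox4i1 and Cox4i2 had 14 and 51, so these pairs could not be compared.

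**Figure D3:**
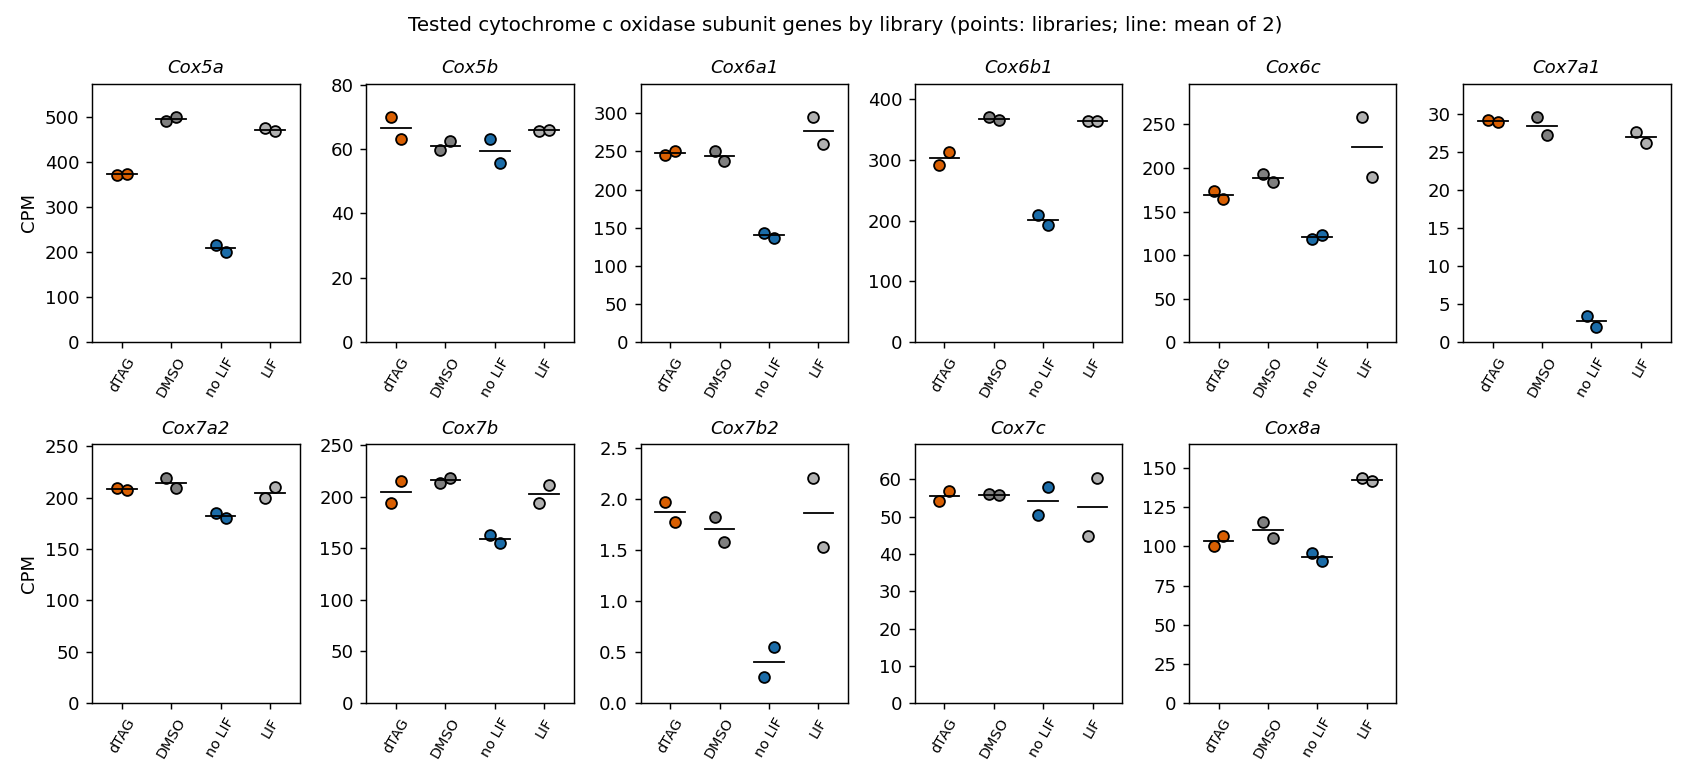
CPM (vertical axes, from 0) of the 11 tested cytochrome c oxidase genes in each library, with a line at the mean of each group. Cox7a1 stands at 3.50 and 2.05 CPM without LIF and between 26.2 and 29.6 CPM in the other 6 libraries, whereas the libraries of Cox7c overlap between the groups with and without LIF.

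Promoters are shown for 4 complex IV genes that fell by different amounts, among them both VIIa isoforms, and for Sdhd and Uqcrh, the pair that rose. Each line gives the 170 bases before the transcription start in the RefSeq table of build GRCm38.p6, on the gene's strand; the read counts themselves were made on mm9. The windows lie at chr7:30184001-30184170 (plus strand) for Cox7a1, chr9:57521062-57521231 (plus) for Cox5a, chr9:79759854-79760023 (minus) for Cox7a2, chr5:115348959-115349128 (minus) for Cox6a1, chr9:50603850-50604019 (minus) for Sdhd and chr4:116075071-116075240 (minus) for Uqcrh. Capitals mark the letters CGCATGCG, the core of the NRF1 motif, and CCGGAAG, an ETS motif of the kind GABPA binds, which reads CTTCCGG where it lies on the opposite strand.
Cox7a1: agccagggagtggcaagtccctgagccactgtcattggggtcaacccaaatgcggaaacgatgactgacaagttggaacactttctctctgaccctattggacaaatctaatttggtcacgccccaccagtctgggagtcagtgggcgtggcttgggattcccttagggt
Cox5a: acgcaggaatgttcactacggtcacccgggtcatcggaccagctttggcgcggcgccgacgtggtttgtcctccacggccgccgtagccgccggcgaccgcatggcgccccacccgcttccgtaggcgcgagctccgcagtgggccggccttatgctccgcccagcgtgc
Cox7a2: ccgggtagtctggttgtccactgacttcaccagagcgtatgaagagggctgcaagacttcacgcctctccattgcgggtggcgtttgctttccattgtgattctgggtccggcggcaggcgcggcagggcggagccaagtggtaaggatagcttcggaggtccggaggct
Cox6a1: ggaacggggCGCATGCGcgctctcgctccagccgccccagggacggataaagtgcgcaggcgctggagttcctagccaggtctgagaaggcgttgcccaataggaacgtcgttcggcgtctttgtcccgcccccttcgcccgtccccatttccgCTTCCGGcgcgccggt
Sdhd: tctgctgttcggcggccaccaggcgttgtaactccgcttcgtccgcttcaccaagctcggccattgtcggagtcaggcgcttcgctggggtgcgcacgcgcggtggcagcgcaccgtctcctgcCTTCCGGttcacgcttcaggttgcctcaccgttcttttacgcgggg
Uqcrh: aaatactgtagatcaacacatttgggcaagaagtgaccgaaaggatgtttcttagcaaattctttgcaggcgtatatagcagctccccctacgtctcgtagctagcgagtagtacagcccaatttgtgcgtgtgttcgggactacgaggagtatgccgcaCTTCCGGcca

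NRF1 and the ETS factor GABPA are known activators of nuclear genes for respiratory subunits. A promoter of 300 bases (250 before the start to 50 after) was listed for 54 of the 63 tested members, and motifs were searched on both strands. CCGGAAG was found in 14 of the 54 (25.9%), against 19.4% of all tested genes with a promoter. CGCATGCG was found in 8 of 54 (14.8%), against 4.16%, and AAGATGGCG, a YY1 motif, in 5 of 54 (9.26%), against 3.61%. TCAAGGTCA, a motif of oestrogen-related receptors, was found in 1 of 54 (1.85%), against 0.236%. TTCCNGGAA, a STAT motif, was also found in 1 of 54 (1.85%), against 1.34%. Among the 34 members with a promoter that fell without LIF, 8 held CCGGAAG (23.5%), and among the 18 that were not called, 4 did (22.2%). For CGCATGCG the counts were 4 of 34 (11.8%) and 4 of 18 (22.2%). Both members that rose, Sdhd and Uqcrh, held CCGGAAG, as printed, and neither held CGCATGCG; Sdhd has a TCAAGGTCA match after its start. Cox7a1, Cox5a and Cox7a2 held none of the 5 motifs in the window, and Cox6a1 held both NRF1 and ETS letters. Of the 10 tested complex IV members with a promoter, 3 held CCGGAAG. These were Cox6a1, Cox6b1 and Cox8a, which all fell without LIF, and the windows of Cox6b1 and Cox8a are not printed. These matches are descriptions of letters and not of bound sites.

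Of the 12 tested genes of complex V, 7 fell without LIF (58.3%) and 0 rose, against 34.4% and 34% of all tested genes. Atp5b, the catalytic beta subunit, had 2770 and 2590 CPM without LIF and 4398 and 4058 CPM with LIF, 1.58-fold lower (log2 fold change -0.66, SE 0.05, edgeR adjusted p = 2.2e-11). Atp5a1, the alpha subunit, had 1719 and 1678 CPM without LIF and 2488 and 2316 CPM with LIF (log2 fold change -0.50, SE 0.05, edgeR adjusted p = 1.9e-09). Both genes of the catalytic ring were thus lower in each library without LIF than in each with it. In the central stalk, Atp5d, the delta subunit, fell by 0.33 on the log2 scale (SE 0.15, edgeR adjusted p = 0.048), while Atp5e, the epsilon subunit, was not called (-0.15). Atp5c1, the gamma subunit, had 52 reads over all libraries and was not called (log2 fold change -0.61, SE 0.63). Atp5g2, a gene of the membrane c ring, had 13.2 and 15.3 CPM without LIF and 15.6 and 14.6 CPM with LIF, with overlapping groups (log2 fold change -0.11, edgeR adjusted p = 0.51).

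The comparison of dTAG with DMSO in the OCT4-FKBP line asked how the same genes stood 24 h after the degrader was added. Of the 63 tested subunit genes, 4 rose, 8 fell and 51 were not called, and 19.0% were thus called in either direction. Over all tested genes 40.5% were called, 20.1% higher and 20.3% lower. With DESeq2 size factors in place of TMM, 4 rose and 5 fell. The median log2 fold change of the 63 was -0.06, against 0.00 over all tested genes, and all members lay between -0.41 and 0.49. Both dTAG libraries lay below both DMSO libraries for 26 members (41.3%) and above for 11 (17.5%). Over all tested genes these shares were 35.4% and 34.8%. Medians by complex were -0.06 for complex I, 0.05 for complex II, -0.12 for complex III, -0.03 for complex IV and -0.04 for complex V. The sign of the complex IV median turned without dTAG replicate 1 (0.023). Counts of higher and lower members were 1 and 5 without dTAG replicate 1, and 1 and 4 without DMSO replicate 1. They were 2 and 5 without DMSO replicate 2. The higher count was 2 without dTAG replicate 2, and the lower count was 5 without WT no LIF replicate 1 and 13 without WT LIF replicate 1. With only the 4 libraries of the tagged line in the fit, 16 were lower.

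Of the 11 calls with dTAG chosen by the rule for named genes, 4 held under every alternative tried, the decreases of Cox5a, Cox6b1, Ndufs4 and Ndufb5. Cox5a had 371 and 374 CPM with dTAG and 490 and 499 CPM in DMSO (log2 fold change -0.41, SE 0.05, edgeR adjusted p = 4.2e-07). Cox6b1, a subunit facing the intermembrane space, had 292 and 313 CPM with dTAG and 370 and 366 CPM in DMSO (log2 fold change -0.28, SE 0.06, edgeR adjusted p = 1.7e-04). In both genes the gap between the groups exceeded the spread within them. Ndufs4, a complex I subunit whose loss in mice gives a model of Leigh syndrome, had 116 and 113 CPM with dTAG and 144 and 139 CPM in DMSO (log2 fold change -0.30, SE 0.06, edgeR adjusted p = 3.0e-04). Ndufb5 had 95.1 and 102 CPM with dTAG and 122 and 125 CPM in DMSO (log2 fold change -0.33, SE 0.07, edgeR adjusted p = 5.1e-04). All 4 of these genes also fell without LIF, as did 66.7% of all 63 tested members.

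The other 7 calls chosen by the same rule were each lost in at least 1 alternative. Among them, Ndufv3 and Atp5k have 2 transcripts each, and all their counted reads came from 1 of the 2. Ndufv3, an accessory subunit beside the NADH site, had 27.4 and 34.8 CPM with dTAG and 20.9 and 23.1 CPM in DMSO (log2 fold change 0.49, SE 0.12, edgeR adjusted p = 0.0018), a call lost without dTAG replicate 2 (edgeR adjusted p = 0.116). Sdha had 814 and 793 CPM with dTAG and 705 and 713 CPM in DMSO (log2 fold change 0.18, SE 0.05). The groups did not overlap in either gene, and the call of Sdha was lost without dTAG replicate 1 or DMSO replicate 1 (edgeR adjusted p of up to 0.0895). Uqcrc1 had 412 and 389 CPM with dTAG and 480 and 453 CPM in DMSO (log2 fold change -0.22, SE 0.07), and lost its call without dTAG replicate 2 or DMSO replicate 1 (edgeR adjusted p of up to 0.101). The calls of Atp5g2 (log2 fold change 0.36), Atp5k (-0.24), an ATP synthase subunit of the membrane part, and Ndufa4 (-0.19) were lost in 7 or more of the alternatives (edgeR adjusted p of up to 0.276, 0.221 and 0.341). Atp5g2 and Atp5k lost theirs without any 1 of the 4 tagged-line libraries, and Ndufa4 without any 1 of them but dTAG replicate 2. Atp5k and Ndufa4 also lost theirs without either WT no LIF library. Among the 8 that fell was also Ndufc2 (-0.22, SE 0.08), an accessory subunit of complex I named after its values were seen.

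Atp5b and Atp5a1, the genes with most reads, were close in level in the tagged line. Atp5b had 3716 and 3622 CPM with dTAG and 3713 and 3686 CPM in DMSO, a log2 fold change of -0.01 with a 95% interval of -0.12 to 0.10. For Atp5a1 the levels were 2017 and 1986 CPM with dTAG and 2054 and 2050 CPM in DMSO (log2 fold change -0.04, interval -0.14 to 0.07). Cox7a1 had 29.3 and 28.9 CPM with dTAG and 29.6 and 27.3 CPM in DMSO, overlapping groups with an interval of -0.19 to 0.28 on the log2 scale. Cyc1 had 221 and 210 CPM with dTAG and 235 and 245 CPM in DMSO (log2 fold change -0.16, SE 0.06, edgeR adjusted p = 0.045). Cox4i2, the isoform of subunit IV known from lung and hypoxia, was below the test's read minimum, with 10 and 13 reads with dTAG and 4 and 4 in DMSO.

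Whether the responses differed was tested as the log2 fold change with dTAG minus that without LIF. Of the 63 members, 34 were called above 0 and 2 below, so 54.0% were called above, against 28.6% of all tested genes above and 26.4% below. The 2 below were Sdhd (-0.32, SE 0.08) and Ndufa4 (-0.34, SE 0.10), and that count was 4 without WT LIF replicate 2. Of the 42 members that fell without LIF, 33 were among the 34. The difference subtracts the change without LIF from the same libraries, so this overlap is partly built in and is not separate evidence. The smallest adjusted p-values belonged to Cox7a1 (difference 3.24, SE 0.21, edgeR adjusted p = 1.1e-12), Cox6a1 (1.01, SE 0.09, edgeR adjusted p = 3.3e-10) and Cox5a (0.76, SE 0.08, edgeR adjusted p = 2.8e-09). Cox6a1 had 245 and 250 CPM with dTAG and 250 and 238 CPM in DMSO, overlapping groups. Without LIF it had 143 and 137 CPM, against 295 and 259 CPM with LIF. Ndufa4, named for complex I but since assigned to cytochrome c oxidase in mammals, had 123 and 135 CPM with dTAG and 144 and 149 CPM in DMSO. Its levels were 178 and 185 CPM without LIF and 150 and 177 CPM with LIF (log2 fold change 0.16, edgeR adjusted p = 0.053). The treatments differ in cell line and duration, which cannot be told apart from the treatment in this contrast.

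**Figure D4:**
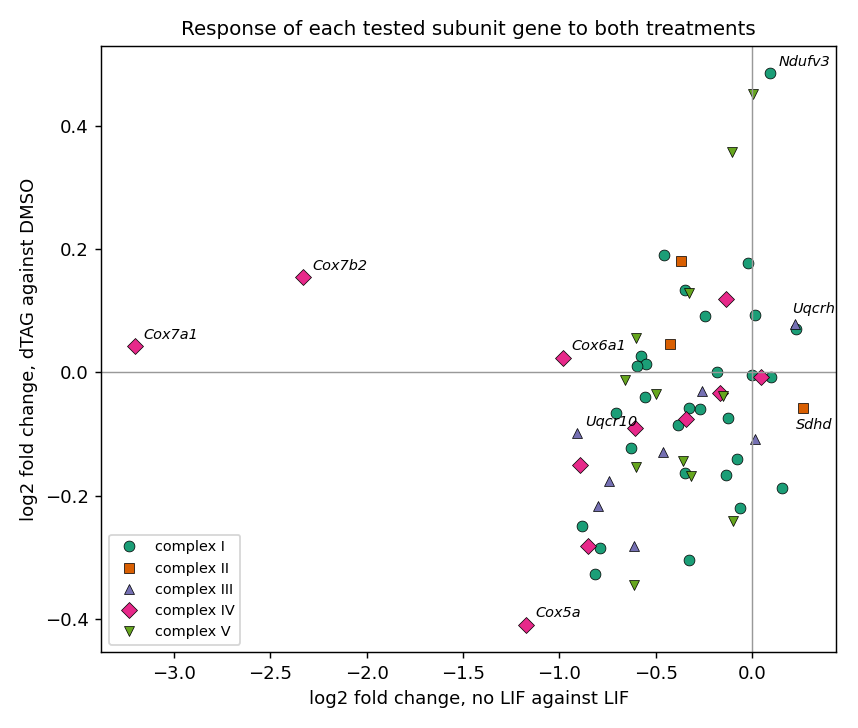
Log2 fold change with dTAG (vertical axis) against log2 fold change without LIF (horizontal axis) for the 63 tested subunit genes, one point a gene, with a marker for each complex; the axes have different scales. Cox7a1 and Cox7b2 lie far left near 0 on the vertical axis, Cox5a is low on both at -0.41 and -1.17, and Sdhd and Uqcrh lie right of 0.

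In both comparisons 5 members fell (Cox5a, Cox6b1, Ndufs4, Ndufb5 and Uqcrc1), and 2 rose with dTAG and fell without LIF, Sdha among them. Of the 8 that fell with dTAG, 62.5% also fell without LIF, near the 66.7% of all 63 tested members that did. Of the 42 that fell without LIF, 11.9% also fell with dTAG, near the 12.7% of all 63.

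The control groups themselves differed, also in Pou5f1, at 77.5 and 77.8 CPM in DMSO and 425 and 336 CPM in WT with LIF. Its count was 4.91-fold lower in DMSO (log2 fold change -2.30, SE 0.09, edgeR adjusted p = 3.5e-16). That count leaves out reads shared by its 2 transcripts, and OCT4 carries the tag in this line, so the difference in all Pou5f1 RNA is not known. In the tagged line in DMSO against WT with LIF, 5 members were higher and 12 lower, 27.0% of the 63 in either direction, against 40.6% of all tested genes (18.5% higher, 22.1% lower). Both DMSO libraries lay above both of WT with LIF for 11 members (17.5%) and below for 22 (34.9%). Over all tested genes these shares were 30.8% and 36.8%. This comparison shares its libraries with both others, and tag, clone, DMSO and culture batch cannot be told apart in it. The lower count was 5 without DMSO replicate 1, 4 without DMSO replicate 2 and 7 without WT LIF replicate 1, and the higher count was 9 without WT LIF replicate 2. Atp5a1 stood at 2054 and 2050 CPM in DMSO and 2488 and 2316 CPM in WT with LIF (log2 fold change -0.23, SE 0.05, edgeR adjusted p = 7.3e-04). Cox8a stood at 116 and 105 CPM in DMSO and 144 and 142 CPM in WT with LIF (log2 fold change -0.38, SE 0.07). Uqcrh was the other way, with 200 and 210 CPM in DMSO and 157 and 160 CPM in WT with LIF (log2 fold change 0.38, SE 0.06).

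Other lists of mitochondrial genes were counted in the same fit, where 34.4% of all tested genes were lower and 34% higher without LIF, and 20.3% lower and 20.1% higher with dTAG. Of 21 tested genes of the TCA cycle and pyruvate entry, 13 fell (61.9%) and 4 rose (19.0%) without LIF (median log2 fold change -0.32), and 4 fell and 4 rose with dTAG (median -0.02). Idh2, the mitochondrial NADP-dependent isocitrate dehydrogenase, had 177 and 165 CPM without LIF and 721 and 655 CPM with LIF (log2 fold change -2.01, edgeR adjusted p = 1.7e-20). Dld, a subunit shared by the pyruvate and 2-oxoglutarate dehydrogenase complexes, had 338 and 340 CPM with dTAG and 248 and 262 CPM in DMSO (log2 fold change 0.41, edgeR adjusted p = 6.9e-07). Of 16 genes for electron carriers and their synthesis, 9 fell (56.2%) and 1 rose without LIF, and 3 fell and 3 rose (18.8% each) with dTAG. Etfa, a subunit of the electron transfer flavoprotein, fell by 0.61 on the log2 scale without LIF, and Etfdh, which passes its electrons to ubiquinone, rose with dTAG (log2 fold change 0.73).

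Lists of genes that build the complexes had members called in both directions without LIF. Of 34 tested assembly factors, 9 fell (26.5%) and 10 rose (29.4%) without LIF (median log2 fold change 0.03), and 5 fell and 4 rose with dTAG (median 0.00). Timmdc1, a complex I assembly factor, rose in both comparisons, by 0.77 without LIF and 0.69 with dTAG on the log2 scale. Ndufaf4, another complex I assembly factor, had 44.5 and 45.4 CPM with dTAG and 69.8 and 79.4 CPM in DMSO (log2 fold change -0.74, edgeR adjusted p = 7.3e-08), and rose by 0.27 without LIF. Of 66 mitochondrial ribosome genes, 17 fell (25.8%) and 18 rose (27.3%) without LIF, and 15 fell and 0 rose with dTAG. The 15 that fell are 22.7% of the list, near the 20.3% of all tested genes that fell. The 0 that rose stand against 20.1% of all tested genes. Of that list, Mrps24 fell by 1.20 without LIF and Mrpl47 by 0.62 with dTAG on the log2 scale. Among 11 genes for mitochondrial DNA expression, 3 fell and 4 rose without LIF, and 4 fell (36.4%) and 0 rose with dTAG. In that list Twnk, the mitochondrial helicase, rose by 0.61 without LIF, and Tefm, a transcription elongation factor, fell by 0.58 with dTAG.

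Of 8 tested regulators of mitochondrial biogenesis, 4 fell (50%) and 2 rose without LIF, and 3 fell (37.5%) and 0 rose with dTAG. Gabpa had 278 and 293 CPM without LIF and 441 and 474 CPM with LIF (log2 fold change -0.68, edgeR adjusted p = 2.3e-11). Mycn, the MYC family member prominent in ES cells, had 62.6 and 61.3 CPM with dTAG and 190 and 177 CPM in DMSO (log2 fold change -1.56, edgeR adjusted p = 4e-16). Its levels without and with LIF overlapped (log2 fold change -0.05). Nrf1, Ppargc1a, Esrrb, Esrrg and Myc had 0 or 1 read over all libraries and several transcripts each, and were not tested. Of 9 genes for the ATP synthase inhibitor, ADP/ATP carriers, uncoupling protein and porins, 4 fell (44.4%) and 0 rose without LIF, and 2 fell (22.2%) and 4 rose (44.4%) with dTAG. Ucp2, an uncoupling protein family member, had 282 and 274 CPM with dTAG and 204 and 199 CPM in DMSO (log2 fold change 0.47, edgeR adjusted p = 4.4e-07), and without LIF it fell by 0.60 on the log2 scale. Vdac1, a porin of the outer membrane, fell in both comparisons, by 0.85 without LIF and 0.30 with dTAG.

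**Figure D5:**
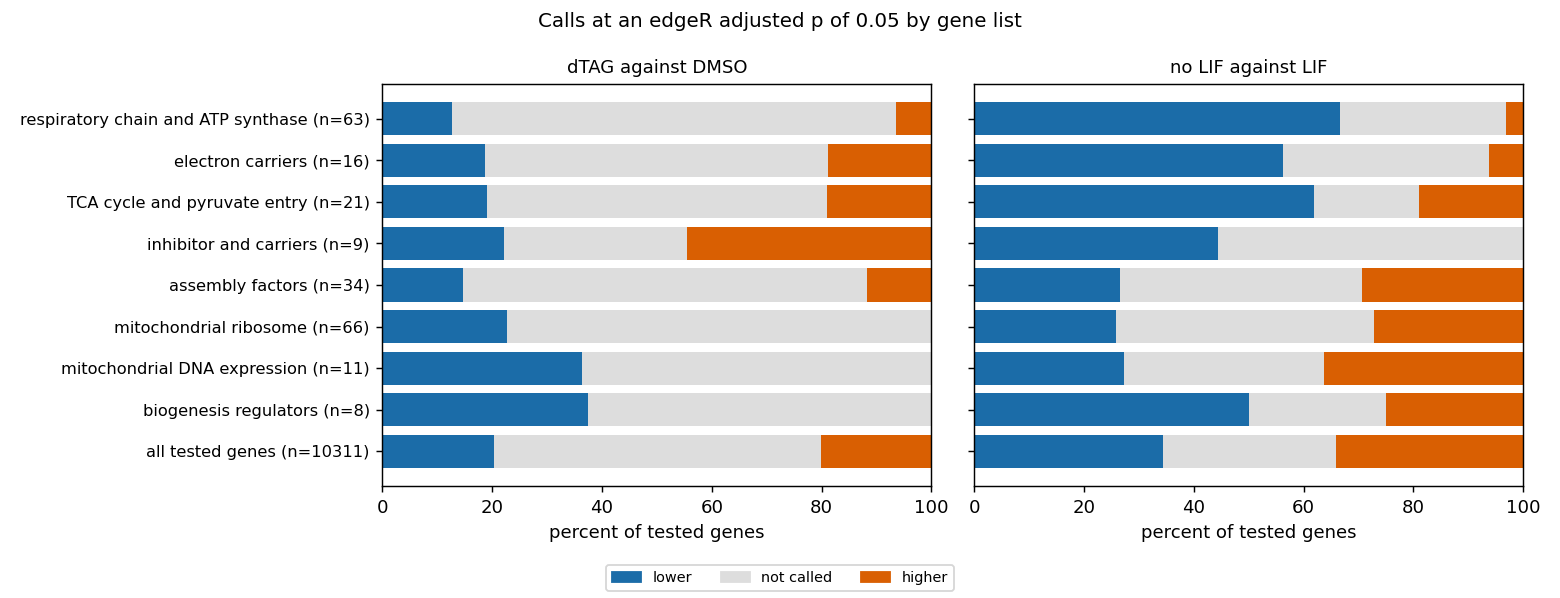
Percent of tested genes (horizontal axes) called lower, not called and called higher at an edgeR adjusted p of 0.05 for the subunit genes, 7 other mitochondrial lists and all tested genes, with dTAG on the left and without LIF on the right. Without LIF 66.7% of subunit genes were lower and 3.17% higher, against 34.4% and 34% of all tested genes; with dTAG 12.7% were lower and 6.35% higher, against 20.3% and 20.1%.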

How the data were processed

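Raw counts of reads per RefSeq transcript were deposited by the authors, 1 table per library, from stranded poly(A) libraries per the labels; HISAT2, HTSeq and mm9 are named per the submitters' processing notes, and for the strand setting the sources used here give nothing. Of 41565 transcripts per table, 41320 were paired with a symbol through RefSeq and 131 through GENCODE, and 114 kept their accession; counts were summed per symbol. HTSeq's summary lines stayed out of library sizes; reads without a feature were 10.4% to 14.9% of uniquely aligned reads.

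Counts were tested in edgeR 4.0.16 (R 4.3.3) by quasi-likelihood, with TMM scaling and filterByExpr, in one fit of 4 groups over 8 libraries (4 residual degrees of freedom, biological coefficient of variation 4.43%). p-values were adjusted by Benjamini-Hochberg over 10311 genes and called at 0.05. Standard errors are the log2 fold change divided by the root of F. Replicates correlated at r = 0.995 on log2 CPM but differed beyond sampling noise (chi-square per degree of freedom 1.85 to 4.97). Alternatives were other scalings, DESeq2 1.42.0, other filters, the 4 libraries of each comparison, 1-transcript genes, a replicate block and leaving out each library. Named members were, for each complex and comparison, up to 2 with the smallest adjusted p each way, the isoform families, and 3 each way for the difference; other lists gave 1 gene per comparison. One gene that this rule takes is not reported here. Members, lists and rules were chosen with earlier results of these data known. Promoters are RefSeq's, found for 68 of 85 members; a longer form of the NRF1 and YY1 motifs was searched first and then shortened to its core.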

Additional observations from a re-analysis of the deposited data

How the results depend on the processing

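Over 1692 alternative values of 96 results on named members, 1576 stayed on their side of the threshold, 99 lost a call and 17 gained one. The sign changed in 30 of them, 0 of which belonged to a called result, and in 1 of the medians and ratios, that of complex IV with dTAG. Of named called members, 18 of 20 kept the call under every alternative without LIF, 17 of 19 for the difference and 4 of 11 with dTAG. Members lower without LIF numbered 36 to 44 over all alternatives, at least 35 of them shared with the 42. Lower members with dTAG numbered 5 with DESeq2 size factors, 5 with the DESeq2 test, and 16 in a fit of the tagged-line libraries alone. Lower members in DMSO against WT LIF numbered 5 with the DESeq2 test and 6 with only 4 libraries. The cause was not tested.

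Median log2 fold changes without LIF were -0.32 (complex II), -0.81 (IV) and -0.30 (V) with DESeq2 size factors and -0.32, -0.81 and -0.30 with the DESeq2 test. With no filter the complex II median was -0.41 without LIF and 0.0024 with dTAG; with at least 5 CPM in 2 libraries the complex IV median without LIF was -0.73, since fewer genes were tested. Log2 ratios of summed CPM without LIF were -0.30 (complex I), -0.20 (II), -0.69 (IV) and -0.45 (all members) with DESeq2 size factors, and -0.22 for complex II with upper-quartile scaling. With library totals only, the complex II ratio with dTAG was 0.093.

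Leaving out 1 library gave 1 to 5 higher and 4 to 13 lower members with dTAG, 1 to 4 higher without LIF, 2 to 4 lower for the difference, and 4 to 9 higher and 4 to 15 lower in DMSO against WT LIF. Medians ranged without LIF from -0.34 to -0.25 (complex I), -0.69 to -0.34 (III), -0.90 to -0.75 (IV) and -0.42 to -0.27 (V), and with dTAG from -0.029 to 0.023 (IV). These fits leave a group with 1 library, assumed to vary like the others.

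Replicate numbers were not treated as pairs: correlations of deviations between same-numbered libraries ranged from -0.0066 to 0.046, under the minimum of 0.1 set for pairing. Low correlations cannot show whether same-numbered libraries were handled together. With a replicate block, 4 members were higher and 8 lower with dTAG, 3 and 42 without LIF, 35 and 2 for the difference, and 5 and 12 in DMSO against WT LIF. With 2 libraries a group and ambiguous reads unassigned, small differences can be missed, and the 22 untested genes are out of reach.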
